A study of Mus musculus with 10 samples.

Results

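The genes Sytl4, Syt7, Syt13, Snap25, Stx1a, Vamp2, Rab3a, Rab27a, Cplx2 and Ptprn, which act in regulated granule exocytosis, were measured in single cells of the embryonic mouse pancreas. They were chosen by symbol, with earlier results of these data known but with no measured value in the rule, and all 10 were found among the 27716 genes listed in every count matrix. They were followed through Neurog3-like and Fev-like progenitors, alpha-like, beta-like and delta-like hormone cells, and acinar-like cells. Syt7, Syt13 and Cplx2 were already high in Neurog3-like progenitors. Snap25, Stx1a, Vamp2, Rab3a and Rab27a rose 2.75-fold to 11.9-fold between Neurog3-like and Fev-like cells. Ptprn was higher in alpha-like and beta-like than in Fev-like cells. Sytl4 lay at 197 to 272 CPM (UMIs of the gene for each 1000000 UMIs of the class in that library) in beta-like cells and at 27.8 or less in every library of each other class.

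Hormone cells store insulin, glucagon or somatostatin in dense-core granules and release it when calcium rises. A granule is brought to the plasma membrane by the small GTPases Rab3a and Rab27a and by effectors that hold them, such as granuphilin, the product of Sytl4. The membranes are then fused by a SNARE complex, in which Vamp2 sits on the granule and Snap25 and Stx1a sit on the plasma membrane, while synaptotagmins such as Syt7 sense calcium and complexins such as Cplx2 clamp and assist the complex. Syt13 is a synaptotagmin that lacks the residues for binding calcium, and Ptprn encodes IA-2, a protein of the granule membrane. Acinar cells secrete digestive enzymes from zymogen granules with other members of these families, and they served here as the secretory cells outside the islet lineage.

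Cells of dissociated pancreata had been sequenced with droplet 3′ kits at embryonic day E12.5, at E14.5 or at E17.5. All came from Swiss Webster embryos except 1 library of E14.5 Fev-Cre; ROSA26mTmG embryos on a C57BL/6J background, in which Cre driven by Fev turns membrane TdTomato into membrane GFP, and from which GFP-positive cells were sorted and put together with TdTomato-positive, GFP-negative cells. The version 1 (v1) kit gave 1 library of E12.5, 2 of E14.5 (in the labels, batch 1 and batch 2) and 1 of E17.5 from live cells, and the version 2 (v2) kit gave 1 library of each stage from live cells depleted of CD140a-positive mesenchyme, besides the Fev-Cre library. Each library was a pool of pancreata, so the library was the replicate and p-values measure the spread between these libraries. The E17.5 v2 suspension, loaded in 2 wells, was summed as 1 library. The labels put the v1 libraries of E12.5 and E17.5 in batch 2 as well, so that 3 stages share a batch, with 1 library each. The stage fits have a term for the kit and none for the batch. Stage could not be told apart from litter and from dissociation time, which lasted 10 minutes for E12.5, 15 for E14.5 and 30 for E17.5, nor from the day among the v2 libraries, and among the Swiss Webster libraries the kit could not be told apart from the depletion. The Fev-Cre library, v2 without the depletion, differed from them in strain and sorting as well.

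The 8 libraries held 57982 cells of at least 200 genes. Their medians were 2952 to 11783 UMIs (unique molecular identifiers, each standing for 1 captured mRNA) per cell, with the 2 wells of E17.5 v2 taken apart. Haemoglobin genes took 0.0128% to 60.9% of the UMIs of all barcodes, before those with fewer than 200 genes were left out. Pairs of wells shared 0.433% to 1.79% of the barcodes of the smaller well. Classes were rebuilt by clustering with the 10 genes and 88 further exocytosis genes held out, and were named only from other markers. They gave 877 Neurog3-like cells in 6 libraries, 1085 Fev-like in 7, 1652 alpha-like in 8, 1406 beta-like in 6, 262 delta-like in 4 and 5426 acinar-like in 8, counting libraries with at least 20 cells of the class. The defining genes followed the names: median Neurog3 was 4786 CPM in Neurog3-like and 972 in Fev-like cells, and Fev was 998 in Fev-like against 38.7 in Neurog3-like cells. Levels are given as CPM of the class in a library, and shares of cells after thinning to 2000 UMIs a cell, which left out 80 shallower cells, 15 of them among the 44 alpha-like cells of E17.5 v1. Hormone transcripts took 43.8% of the UMIs of E17.5 v2 beta-like cells and 6.34% or more of those of the other beta-like libraries, which lowers the CPM of every other gene there, so that fold changes come from a fit that rescales for composition.

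**Figure D1:**
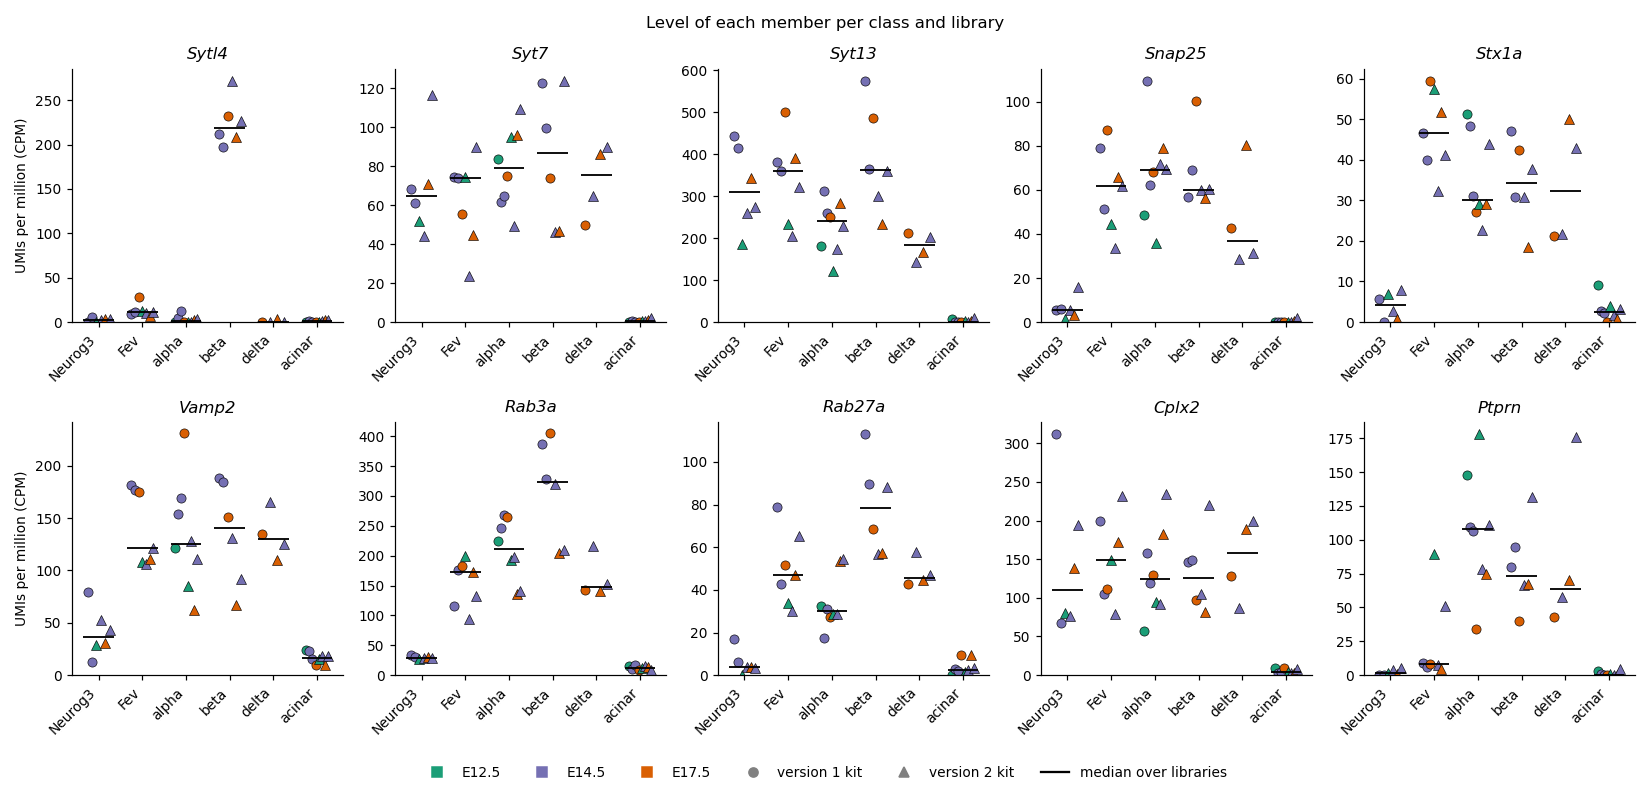
Level of each of the 10 genes (CPM, linear axis from 0, one panel a gene) in 6 classes, with 1 point a library coloured by stage and shaped by kit and a bar at the median. Sytl4 stands high in the 6 beta-like libraries (197 to 272), Syt7, Syt13 and Cplx2 are high from Neurog3-like cells on, and the acinar-like points lie at or below 24.4 in all panels.

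The acinar-like cells set the background. Syt7 was at 0 to 2.22 CPM in the 8 acinar-like libraries, Snap25 at 0 to 1.71 with 5 of 8 libraries at 0, and Ptprn at 0 to 4.77. The highest of each came from the Fev-Cre library, which also held the highest acinar-like Syt13, 9.72 against 0 to 1.13 in the other E14.5 libraries. Vamp2, at 9.24 to 24.4 CPM, and Rab3a, at 9.24 to 17.1, were the members with counts in every acinar-like library besides Cplx2, at 2.45 to 9.24. After thinning, 3.80% and 3.11% of acinar-like cells in the median library had a UMI of Vamp2 or Rab3a, against 0% to 1.197% for the other 8 genes.

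Beta-like cells exceeded acinar-like cells for each of the 10 genes. All 10 genes were higher in beta-like cells in 6 of 6 libraries, and all 10 passed an adjusted p of 0.05 (edgeR quasi-likelihood, Benjamini-Hochberg) with at least a 2-fold difference, where 17.4% of the 8398 genes tested were called higher and 17.4% lower. All members but Vamp2 and Rab3a were at 9.72 CPM or less in every acinar-like library and passed the filter on low counts mainly through beta-like cells, so that they had to differ, and the count of 10 and the sizes of these 8 are descriptions. The largest log2 differences were those of Syt13 (6.85 ± 0.45 SE), Sytl4 (6.53 ± 0.28) and Snap25 (6.39 ± 0.45), and the smallest was that of Vamp2 (2.52 ± 0.20, adjusted p = 2.37e-07). The other 6 lay between 3.76 for Stx1a and 6.24 for Ptprn. Leaving out the Fev-Cre library raised the log2 difference of Ptprn to 7.42, of Syt13 to 7.71 and of Snap25 to 7.12, and leaving out E17.5 v2 raised that of Rab27a from 3.82 to 4.56.

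Neurog3-like cells, the transient progenitors of the islet, already carried the synaptotagmin and complexin members. Syt13 lay at 186 to 443 CPM with a median of 309.5 over 6 libraries. Cplx2 lay at 67.2 to 313 CPM with a median of 109.7, the highest being E14.5 v1 batch 1, and Syt7 at 43.9 to 116 with a median of 64.7, the highest being the Fev-Cre library. No Neurog3-like library overlapped any acinar-like library for these 3 genes. In the thinned cells 45.6% of Neurog3-like cells of the median library had a UMI of Syt13, 19.4% of Cplx2 and 13.9% of Syt7, against 0.295%, 1.197% and 0% of acinar-like cells (for Syt7, 9 of all 5411).

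The log2 difference from acinar-like cells was 6.42 ± 0.44 for Syt13, 5.63 ± 0.33 for Syt7 and 4.59 ± 0.26 for Cplx2, each higher in 6 of 6 libraries. These 3 passed the filter mainly through Neurog3-like cells and had to differ, so that their call is a description. They were 3 of the 5 members with enough counts to be tested, and nothing is read from this count, against 13.3% of 8233 genes called higher and 14.49% lower. Vamp2 (0.84 ± 0.22, adjusted p = 0.0087) and Rab3a (0.73 ± 0.25, adjusted p = 0.0326) passed the adjusted p (edgeR) but not the 2-fold limit. Rab3a did not pass it thinned (0.136), with cells grouped by naming genes (0.162) or with the UMIs divided between clustering and test (0.0657). Sytl4, Snap25, Stx1a, Rab27a and Ptprn were too low in both classes to be tested. Without the filter on low counts Snap25 was called as well (3.03 ± 0.66), while Sytl4, Stx1a, Rab27a and Ptprn were not. Without the Fev-Cre library the log2 difference of Syt13 was 7.04.

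The SNARE members and the Rab GTPases came up between Neurog3-like and Fev-like cells, the next class of the endocrine lineage. Stx1a, a plasma-membrane SNARE, lay at 0 to 8.00 CPM with a median of 4.21 in Neurog3-like cells and at 32.3 to 59.5 with a median of 46.5 in Fev-like cells. Its partner Snap25 lay at 1.16 to 16.01 CPM (median 5.59) in Neurog3-like and at 33.4 to 87.3 (median 61.9) in Fev-like cells. Rab27a lay at 0 to 17.05 CPM (median 3.77) against 30.1 to 79.1 (median 47.1). The ranges of the 2 classes were apart for each of these genes. A cluster with close Neurog3-like and Fev-like scores stayed unnamed in E12.5 v2 (80 cells) and in E17.5 v2 (135 cells). Cells between the 2 classes are thus missing there. In these 2 libraries the Fev-like class was 1 cluster, with Chgb among its leading genes, while elsewhere it joined clusters with and without Chgb among theirs. Neurog3 in Fev-like cells ran from 102 to 2243 CPM.

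Rab3a lay at 26.8 to 34.1 CPM with a median of 29.4 in Neurog3-like cells and at 93.6 to 199.99 with a median of 172 in Fev-like cells. Vamp2, the SNARE of the granule, lay at 12.2 to 79.6 CPM (median 36.5) and then at 106 to 181 (median 122), so that its ranges were apart as well. In the thinned cells the share with a UMI went from 0.578% to 8.94% for Stx1a, from 1.11% to 10.8% for Snap25, from 0.679% to 8.75% for Rab27a, from 6.03% to 25.1% for Rab3a and from 7.63% to 20.5% for Vamp2, as medians over libraries. The Neurog3-like shares of Stx1a and Rab27a lay near those of acinar-like cells, 0.536% and 0.35%. Snap25 was found in 9 of 873 Neurog3-like and in 5 of 5411 acinar-like thinned cells.

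In the 6 libraries that held both classes, the log2 difference of Fev-like minus Neurog3-like cells was 3.57 ± 0.37 for Rab27a (adjusted p = 4.88e-06, edgeR), 3.11 ± 0.34 for Stx1a (adjusted p = 6.76e-06), 2.91 ± 0.35 for Snap25 (adjusted p = 1.68e-05), 2.16 ± 0.17 for Rab3a (adjusted p = 5.08e-07) and 1.46 ± 0.20 for Vamp2 (adjusted p = 5.76e-05). Each was higher in Fev-like cells in 6 of 6 libraries. These 5 calls were made among 8 members tested, against 6.0% of 6748 genes called higher and 7.10% called lower, and over all genes tested the median log2 difference was 0.0035. Rab27a, Stx1a and Snap25 had 17, 26 and 32 UMIs in all Neurog3-like cells, so that they passed the filter through Fev-like cells and had to differ, and the count of 5 is a description. Without the Fev-Cre library the value of Snap25 was 3.65.

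In the reported fit the 3 members that were high in Neurog3-like cells did not pass the test at this step. The log2 difference of Syt7 was -0.38 ± 0.19 (adjusted p = 0.138, edgeR), that of Syt13 -0.15 ± 0.11 (adjusted p = 0.322) and that of Cplx2 0.09 ± 0.15 (adjusted p = 0.704), and Syt7 and Syt13 were each higher in 3 libraries and lower in the other 3. Under some alternatives Syt7 passed the adjusted p on the lower side, under 2-fold. It was at -0.78 ± 0.24 thinned (adjusted p = 0.0211) and at -0.84 ± 0.16 with cells grouped by naming genes (adjusted p = 4.67e-04). With classes clustered on a random part of the UMIs and tested on the rest it was at -0.61 ± 0.20 (adjusted p = 0.0244). Its median thinned share was 13.9% in Neurog3-like and 8.22% in Fev-like cells. Sytl4 and Ptprn had too few UMIs for the filter, with 13 and 14 UMIs in all Neurog3-like cells against 71 and 246 in Fev-like cells. Without the filter both were called higher in Fev-like cells, by 1.80 ± 0.53 (Sytl4) and 3.46 ± 0.40 (Ptprn). Of the 246 Fev-like UMIs of Ptprn, 189 came from the Fev-Cre library and 42 from E12.5 v2, so that the Ptprn value is a description.

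**Figure D2:**
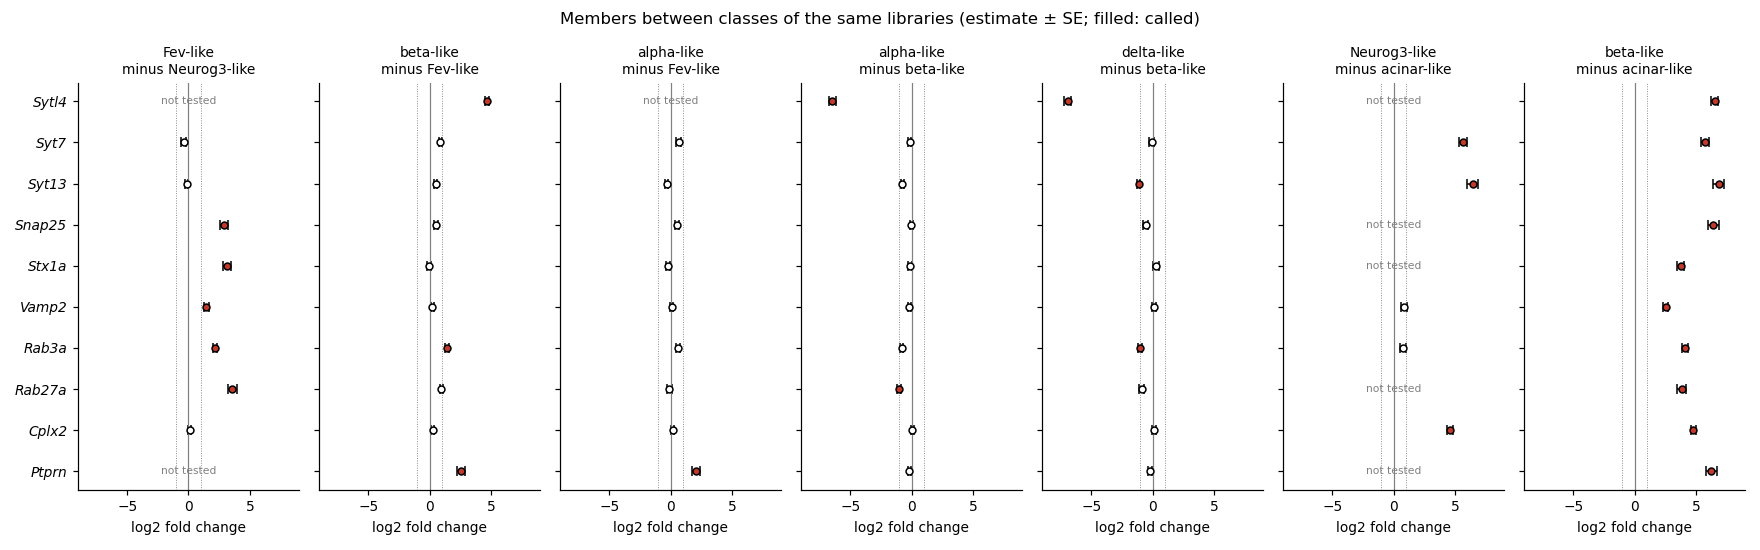
Log2 fold change (x axis, log scale) with its standard error for the 10 genes in 7 comparisons between classes of the same libraries, filled where the adjusted p is below 0.05 and the difference at least 2-fold (dotted lines). Of the genes, 5 are filled in Fev-like minus Neurog3-like, where Syt7, Syt13 and Cplx2 lie at -0.38, -0.15 and 0.09, and Sytl4 stands at 4.69 in beta-like minus Fev-like, -6.45 in alpha-like minus beta-like and -6.93 in delta-like minus beta-like.

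Ptprn, the granule-membrane protein IA-2, rose at the step to hormone cells. In Fev-like cells it was at 4.71 to 9.31 CPM in 5 of 7 libraries, with 2 to 7 UMIs in each, and stood higher in 2, at 89.4 in E12.5 v2 and 51.3 in the Fev-Cre library. These 2 libraries also held the most Gcg among Fev-like cells, 587 and 1293 CPM against 23.3 to 54.2 in the other 5, and the least Neurog3, 102 and 398 against 539 to 2243. Among beta-like cells the Fev-Cre library also held the most Gcg, 450 CPM against 29.1 to 184 in the others. The source of the Gcg UMIs and their relation to the Ptprn level were not tested. In alpha-like cells Ptprn was at 34.0 to 178 CPM (median 108), in beta-like cells at 39.7 to 132 (median 73.6) and in delta-like cells at 42.6, 57.7, 70.2 and 176.

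The log2 difference of Ptprn was 2.097 ± 0.32 for alpha-like minus Fev-like cells (edgeR, higher in 7 of 7 libraries) and 2.55 ± 0.31 for beta-like minus Fev-like cells (higher in 6 of 6). In both fits Ptprn passed the filter mainly through the hormone cells, so that these values are descriptions. Without the Fev-Cre library the beta-like value was 3.77 ± 0.29, the highest of the alternatives. The lowest was 1.97 ± 0.31, with classes clustered on a random part of the UMIs and tested on the rest. Ptprn did not pass the test between alpha-like and beta-like cells (-0.20 ± 0.13, adjusted p = 0.291) or between delta-like and beta-like cells (-0.21 ± 0.19, adjusted p = 0.499). The share of thinned cells with a UMI was 15.9% in alpha-like, 9.40% in beta-like and 10.4% in delta-like cells, against 2.70% in Fev-like, 0.192% in Neurog3-like and 0.188% in acinar-like cells.

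Ptprn was the one member called between alpha-like and Fev-like cells, of 9 tested, where 4.45% of 5598 genes were called higher and 2.98% lower. With 2 to 7 UMIs in 5 of 7 Fev-like libraries, Ptprn passed the filter mainly through alpha-like cells, where it is high, so that nothing is read from this count. Rab3a (0.59 ± 0.15, adjusted p = 0.00885), Syt7 (0.65 ± 0.17, adjusted p = 0.0107) and Snap25 (0.49 ± 0.17, adjusted p = 0.0332) passed the adjusted p (edgeR) on the higher side, and Syt13 (-0.32 ± 0.11, adjusted p = 0.0348) on the lower side, all under 2-fold. Syt13 did not pass it thinned (0.200), with cells grouped by naming genes (0.3075) or with the UMIs divided between clustering and test (0.0726). Rab3a did not pass it thinned (0.0650) or with the UMIs divided (0.0614), nor did Snap25 thinned (0.0526). Sytl4 was not tested there. Without the low-count filter it was called lower in alpha-like cells (-1.82 ± 0.43).

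Sytl4, or granuphilin, which docks insulin granules through Rab27a, separated beta-like cells from each other class. Its beta-like level was 212 and 197 CPM in the E14.5 v1 libraries of batch 1 and batch 2, 233 in E17.5 v1, 272 in E14.5 v2, 208 in E17.5 v2 and 226 in the Fev-Cre library. The 4 E14.5 libraries gave 227 ± 32.4 CPM (SD, n = 4). Outside beta-like cells the highest value in any library was 27.8 CPM, in Fev-like cells of E17.5 v1. Fev-like cells lay at 7.06 to 27.8 (median 10.9), alpha-like cells at 0 to 13.0 (median 1.70) and acinar-like cells at 0 to 2.73, while delta-like cells were at 0 in 3 of 4 libraries and at 3.47 in E17.5 v2.

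Delta-like cells thus held 5 UMIs of Sytl4 in all, against 3972 in beta-like cells. In thinned cells a UMI of Sytl4 was found in 31.5% of beta-like cells of the median library (28.2% to 43.2%), in 2.35% of Fev-like cells and in 0.0611% of alpha-like, 0.185% of acinar-like cells. It was found in 2 of 873 Neurog3-like and 1 of 257 delta-like thinned cells. The log2 difference (edgeR) was 4.69 ± 0.20 for beta-like minus Fev-like cells, -6.45 ± 0.28 for alpha-like minus beta-like cells and -6.93 ± 0.31 for delta-like minus beta-like cells. Beta-like cells were higher in every library of each comparison. Sytl4 passed the filter on low counts through beta-like cells and had to differ, so that these values are descriptions. Over the alternatives they ran from 3.71 to 4.97, from -7.11 to -6.23 and from -10.9 to -5.96. The delta-like value became -10.9 without E17.5 v2, the library that held all 5 of those UMIs, so that this value depends on how the fit treats counts of 0 and is no bound.

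The sequences before the starts of Sytl4 and Stx1a are shown because the first gene set beta-like cells apart and the second came up at the Fev-like step. The 250 bases before the RefSeq start of each are given 5′ to 3′ on the gene's own strand (GRCm38.p6), with CG pairs in capitals. Sytl4 is on chromosome X, minus strand (chrX:133981813-133982062), and Stx1a on chromosome 5, plus strand (chr5:135023232-135023481).
Sytl4: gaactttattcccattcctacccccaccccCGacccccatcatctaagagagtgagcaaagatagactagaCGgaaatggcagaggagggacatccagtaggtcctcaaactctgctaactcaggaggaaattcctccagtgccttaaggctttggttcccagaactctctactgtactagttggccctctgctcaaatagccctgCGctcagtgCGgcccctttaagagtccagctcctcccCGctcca
Stx1a: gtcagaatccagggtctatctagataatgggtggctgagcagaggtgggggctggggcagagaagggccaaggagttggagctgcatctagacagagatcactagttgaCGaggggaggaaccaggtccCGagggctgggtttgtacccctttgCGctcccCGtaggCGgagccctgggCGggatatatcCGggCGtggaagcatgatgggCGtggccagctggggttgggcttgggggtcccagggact

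The Sytl4 stretch holds 5 CG pairs and the Stx1a stretch 9, where the median of 32851 RefSeq promoters is 6. Windows of 300 bases were given for 6 of the 10 genes, 9 windows in all, with up to 16 CG pairs before the start (Rab3a). None of the 9 holds CAGATG, an E-box core of the kind bound by Neurog3 and Neurod1, TGACGTCA, the cyclic AMP response element, or TTCAGCACC, the left part of the element bound by the repressor Rest, on either strand. Of all promoters 17.2%, 1.79% and 0.371% hold them. A missing match says only that these letters are not in the window. Snap25, Vamp2, Syt7 and Syt13 had no window. The genes lie on 9 chromosomes: Syt13 and Snap25 share chromosome 2, and the others are on chromosomes 1 (Ptprn), 5 (Stx1a), 8 (Rab3a), 9 (Rab27a), 11 (Vamp2), 13 (Cplx2), 19 (Syt7) and X (Sytl4). In GENCODE M21 Syt7 and Rab27a overlap a further gene model on the same strand, so that a share of their reads could have been assigned elsewhere or dropped.

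The Rab GTPases that granuphilin and its relatives bind were also highest in beta-like cells. Rab3a was at 387 and 328 CPM in beta-like cells of the E14.5 v1 batches, 404 in E17.5 v1, 321 in E14.5 v2, 205 in E17.5 v2 and 209.8 in the Fev-Cre library. Beta-like cells were the highest class for Rab3a in 6 of the 6 libraries that held them. The 2 low values are those of a library with 43.8% hormone UMIs and of the Fev-Cre library. With hormone and haemoglobin UMIs left out of the totals they became 373 and 238, within a range of 238 to 541. Beta-like minus Fev-like cells gave a log2 difference of 1.43 ± 0.16 (adjusted p = 1.23e-05, edgeR).

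Rab27a was at 57.0 to 113 CPM in beta-like cells (median 78.4), the highest class in 5 of 6 libraries, at 30.1 to 79.1 in Fev-like, at 42.6 to 57.7 in delta-like and at 17.545 to 54.5 (median 30.0) in alpha-like cells. Its difference of beta-like minus Fev-like cells, 0.97 ± 0.15 (adjusted p = 1.84e-04), missed the 2-fold limit. Sytl4, Rab3a and Ptprn were 3 calls among 10 members tested in beta-like minus Fev-like cells, where 7.17% of 5162 genes were called higher and 4.32% lower. Sytl4, with 71 UMIs in all Fev-like cells, and Ptprn passed the filter mainly through beta-like cells, so that nothing is read from the count of 3. Syt7 (0.88 ± 0.15), Snap25 (0.56 ± 0.17) and Syt13 (0.49 ± 0.11) passed the adjusted p under 2-fold, and Stx1a, Vamp2 and Cplx2 lay between -0.01 and 0.26 without passing it. Snap25 did not pass it thinned (adjusted p = 0.0597, edgeR) or with cells grouped by naming genes (adjusted p = 0.159).

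Between alpha-like and beta-like cells, 2 of the 10 members were called, both lower in alpha-like cells, against 3.28% of 6586 genes called higher and 3.83% lower. They were Sytl4 and Rab27a (-1.06 ± 0.17, adjusted p = 2.16e-04, edgeR, lower in 6 of 6 libraries). Sytl4, with 35 UMIs in all alpha-like cells, passed the filter through beta-like cells and had to differ, which leaves Rab27a. The call of Rab27a lay at the 2-fold limit and was lost under 5 of 17 alternatives, all with an adjusted p below 0.05. Its value was -0.97 without E14.5 v1 batch 1 and with doublets kept, -0.94 with cells grouped by naming genes, -0.91 with the v2 kit only and -0.81 thinned. Rab3a (-0.80 ± 0.12, adjusted p = 1.14e-04, lower in 6 of 6) and Syt13 (-0.75 ± 0.11, adjusted p = 9.54e-05, lower in 5 of 6) passed the adjusted p under 2-fold. Syt7, Snap25, Stx1a, Vamp2 and Cplx2 lay between -0.18 and 0.03 without passing it.

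Delta-like cells differed from beta-like cells in the same direction for 3 members, against 4.47% of 7001 genes called higher and 4.70% lower. Besides Sytl4 these were Syt13, at 213, 144, 166 and 203 CPM in the 4 delta-like libraries against 486, 299.8, 234 and 359.8 in the beta-like cells of the same libraries (-1.13 ± 0.13, adjusted p = 7.26e-07, edgeR), and Rab3a, at 142, 216, 140.4 and 152 against 404, 321, 205 and 209.8 (-1.03 ± 0.15, adjusted p = 1.97e-05). Sytl4, with 5 UMIs in all delta-like cells, passed the filter through beta-like cells and had to differ, which leaves these 2 genes. The order of the libraries is E17.5 v1, E14.5 v2, E17.5 v2 and Fev-Cre, and both genes were lower in 4 of 4. The call of Rab3a lay at the 2-fold limit and was lost under 5 of 15 alternatives, all with an adjusted p below 0.05. Its value was -0.97 without E17.5 v1, which is also the fit with the v2 kit only, -0.90 without E17.5 v2, -0.997 with doublets kept and -0.93 with cells grouped by naming genes. Rab27a (-0.88 ± 0.21, adjusted p = 0.00331) passed the adjusted p only, and the remaining 6 did not pass it. Rab27a was called under 2 of 15 alternatives, with values of -1.02 to -0.53 over all of them. It did not pass the adjusted p thinned (0.361, edgeR) or with the UMIs divided between clustering and test (0.0524). Snap25 was called under 1 of 15, with values of -1.17 to -0.24. The neuronal marker list stood highest in delta-like cells, at 241 to 590 CPM summed over 8 genes against 14.2 to 74.6 in beta-like cells. Its UMIs there came mostly from Nefm, Gap43 and Th, while Phox2a, Prph and Dbh had none. Its part in the differences was not tested.

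**Figure D3:**
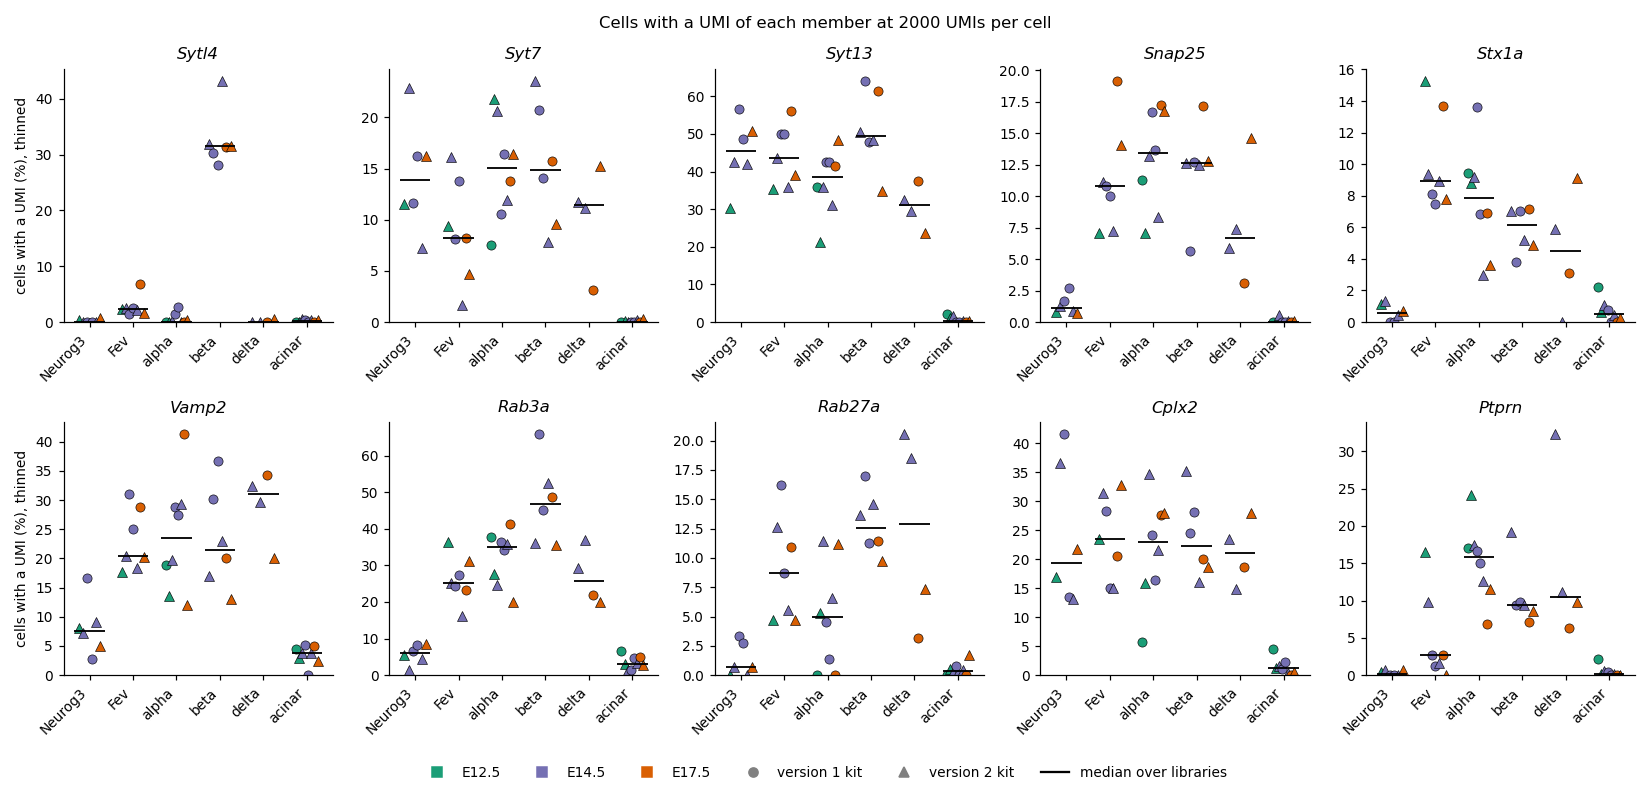
Share of cells with at least 1 UMI of each gene (percent, linear axis from 0) after thinning to 2000 UMIs a cell, with shallower cells left out, by class, with 1 point a library coloured by stage and shaped by kit and a bar at the median. Acinar-like cells give the background, and Sytl4 is seen in 28.2% to 43.2% of beta-like cells and in at most 6.85% of the cells of any other class and library.

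No member passed the threshold between stages of a class. In beta-like cells 0 of 10 members were called between E17.5 and E14.5 by edgeR or DESeq2, where 0.555% of 7925 genes were called higher and 0.278% lower, and 1 member had an unadjusted p under 0.05. That member was Snap25, at 56.6, 69.1, 60.1 and 60.3 CPM in the 4 E14.5 libraries and 100.5 and 56.3 at E17.5 (0.80 ± 0.25, adjusted p = 0.216). Vamp2 was at 151 CPM in the v1 and 66.8 in the v2 library of E17.5, and Rab3a at 404 and 205. With hormone and haemoglobin UMIs left out of the totals, Vamp2 was at 201 and 122, Rab3a at 541 and 373, and Snap25 at 134 and 103, above its 64.0 to 76.6 in the E14.5 libraries. Within v1 batch 2, with 1 library a stage and so no test, Snap25 was at 69.1 CPM at E14.5 and 100.5 at E17.5.

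In alpha-like cells 0 of 9 members tested were called between E17.5 and E14.5 by either tool, with 0 at an unadjusted p under 0.05, where 0.312% of 8014 genes were called higher and 0.125% lower. Between E14.5 and E12.5 again 0 of 9 were called by either tool, but 4 had an unadjusted p under 0.05, where 1.11% were called higher and 1.02% lower. The alpha-like class was mixed. Its libraries held 161 to 26471 CPM of 4 epsilon cell markers, against at most 28.3 in beta-like cells. In E12.5 v2, 70 of its 170 cells came from a cluster led by Ghrl. The part of such cells in the differences between stages was not tested. Ptprn was at 148 and 178 CPM at E12.5, at 109.7, 106, 78.1 and 111 at E14.5 and 34.0 and 74.6 in the E17.5 libraries, so that the 2 E12.5 libraries lay above all others. Its log2 difference was -0.83 ± 0.27 from E12.5 to E14.5 (adjusted p = 0.138) and -0.48 ± 0.30 from E14.5 to E17.5 (adjusted p = 0.715). Within v1 batch 2, in order of stage, Ptprn was at 148, 106 and 34.0 CPM, the last from 5 UMIs.

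Cplx2, Snap25 and Syt13 lay the other way in alpha-like cells, without passing the test. Cplx2 was at 56.6 and 95.2 CPM at E12.5 and at 91.5 to 235 at E14.5 (0.85 ± 0.33, adjusted p = 0.221), Snap25 at 48.5 and 35.9 and then 62.3 to 109.7 (0.79 ± 0.30, adjusted p = 0.224) and Syt13 at 181 and 121 and then 174 to 311 (0.58 ± 0.26, adjusted p = 0.317). Within v1 batch 2, from E12.5 through E14.5 to E17.5, Cplx2 was at 56.6, 119 and 129 CPM, Snap25 at 48.5, 62.3 and 68.0 and Syt13 at 181, 259.7 and 252. Without E14.5 v2 Cplx2 was called (1.13 ± 0.23, adjusted p = 0.0145). The stage change from E14.5 to E17.5 was also compared between beta-like and alpha-like cells in 1 fit. There 0 of 10 members were called by edgeR or DESeq2, against 0.920% of 8369 genes higher and 0.956% lower, and 3 had an unadjusted p under 0.05: Syt7 (-0.64 ± 0.22), Cplx2 (-0.56 ± 0.19) and Rab3a (0.49 ± 0.20), with adjusted p of 0.161, 0.148 and 0.248.

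**Figure D4:**
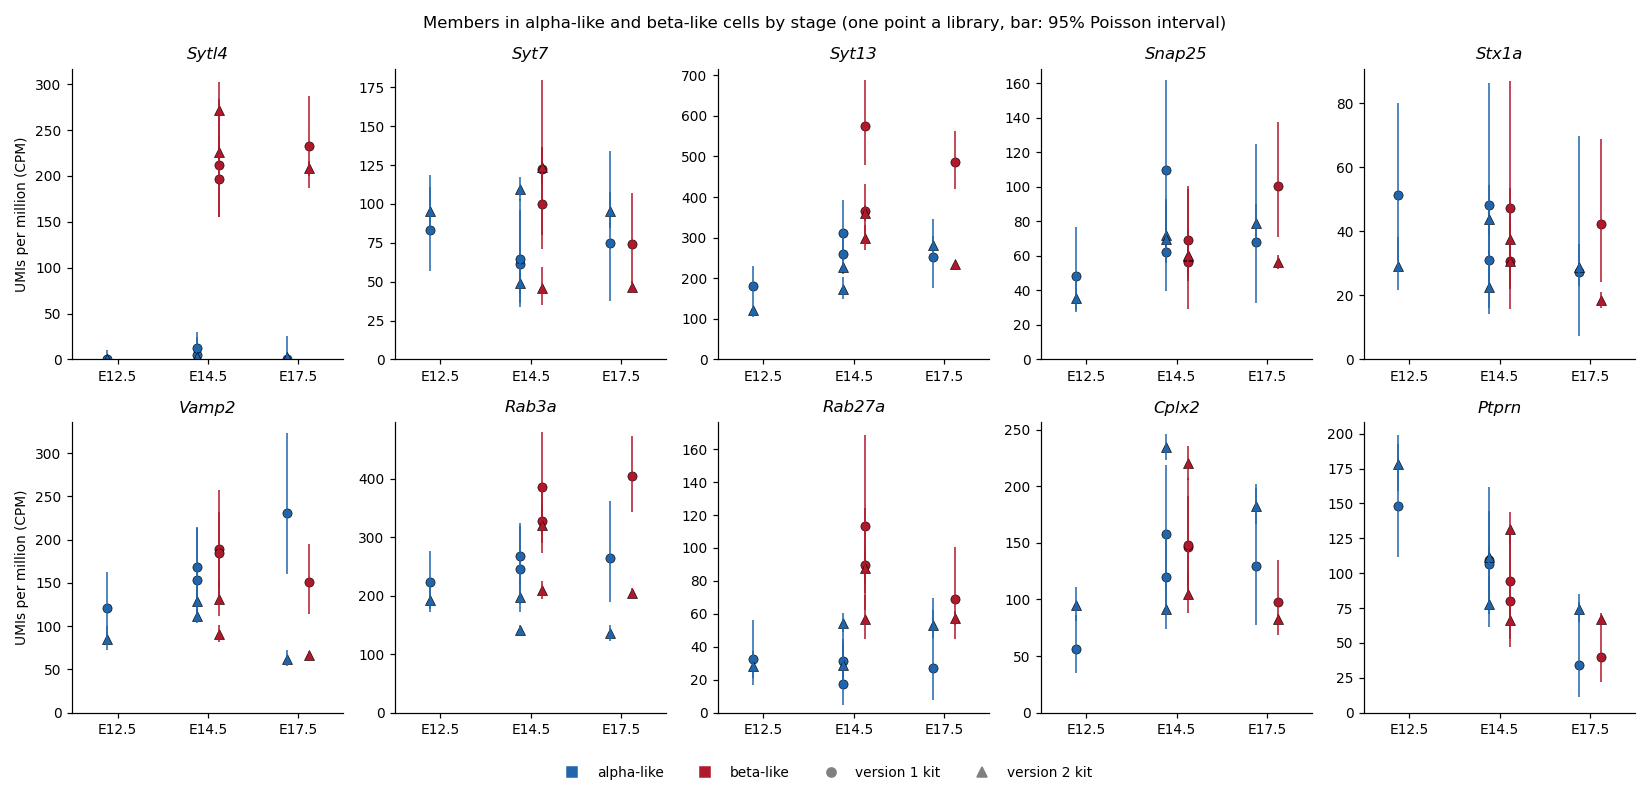
Level of each gene (CPM, linear axis from 0) by stage (E12.5, E14.5, E17.5) in alpha-like and beta-like cells, 1 point a library with its exact 95% Poisson interval, which covers counting error only. Ptprn in alpha-like cells is highest in the 2 E12.5 libraries (148 and 178), and the v2 beta-like library of E17.5 lies below the v1 one for 9 of the 10 genes, with Ptprn the other way (67.0 against 39.7).

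The order of the classes by median level differed between the members, and most neighbours in it overlapped. For Sytl4 beta-like cells were apart from Fev-like cells, and these from Neurog3-like cells. For Syt7, Syt13 and Cplx2 the 5 endocrine classes overlapped each with the next, and only acinar-like cells lay apart. For Snap25, Stx1a, Vamp2 and Rab27a the gap lay between Neurog3-like cells and the class above them, with the Neurog3-like range overlapping the acinar-like one. Rab3a was apart on both sides of Neurog3-like cells, which lay at 26.8 to 34.1 CPM above acinar-like cells at 9.24 to 17.1. Ptprn overlapped at every step, with the 2 high Fev-like libraries inside the ranges of the hormone classes.

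Over the 39 class-by-library sums the members varied together to unequal degrees. The points share libraries, and classes of 1 library share their suspension, so the correlations of log2(CPM + 10) are a description. Pearson's r of the 45 pairs ran from 0.27 to 0.94 with a median of 0.74. The highest were Syt7 with Cplx2 (0.94), Snap25 with Rab3a (0.94), Syt13 with Cplx2 (0.93) and Syt7 with Syt13 (0.93), and the lowest were those of Sytl4, down to 0.27 with Cplx2. Outside both gene lists, the gene most like Snap25 and Rab3a was Scg3, a granin of the granule (r = 0.96 and 0.97), and the gene most like Syt13 was Gdap1l1 (0.95), followed by Neurod1 (0.94). Vamp2 and Rab27a both had Scgn, a calcium-binding protein, among their 2 most like genes (0.93 and 0.91). The most like were Kif1b for Syt7 (0.93), Map1b for Cplx2 (0.93), Fxyd6 for Stx1a (0.94), Ush1c and the granule protein gene Resp18 for Ptprn (both 0.92), and Arhgap36 for Sytl4 (0.90), among 5815 genes with a mean of at least 20 CPM. The second gene was Efcab1 for Syt7, Pcsk1n for Snap25, Gnao1 for Stx1a, Cpe, a granule peptidase, for Rab3a, Dst for Cplx2 and Prss53 for Sytl4, while Vamp2 and Rab27a also stood with 1700086L19Rik and Klhl32, all at r of 0.90 to 0.96.

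The 88 further exocytosis genes, a list set with earlier results of these data known, give the rest of the pathway, and their shares are descriptions. Of 37 tested at the Fev-like step, 6 (16.2%) were called higher in Fev-like than in Neurog3-like cells and 0 lower, beside 6.0% and 7.10% of all genes tested, and their median log2 difference was 0.29. The largest were Ptprn2, the paralog of Ptprn that encodes phogrin, at 41.3 to 61.1 and then 155 to 275 CPM (1.71 ± 0.13, adjusted p = 5.13e-07, edgeR), Syp, which encodes synaptophysin (1.71 ± 0.35, adjusted p = 0.00162), and Syt5 (1.41 ± 0.17, adjusted p = 1.65e-05). By role, 3 of 7 priming and SM proteins, 2 of 4 vesicle membrane proteins and the 1 further calcium sensor tested were called, while 0 of 8 further SNAREs, 0 of 6 Rab effectors and 0 of 4 genes of the NSF cycle were.

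From Fev-like to hormone cells, genes of the wider list were called in both directions. In beta-like cells 1 of 35 tested (2.86%) was called higher and 2 (5.71%) lower, beside 7.17% and 4.32% of all genes. The GTPase gene Rab37 rose from 2.35 to 19.9 CPM in Fev-like to 28.0 to 51.2 in beta-like cells (2.12 ± 0.29, adjusted p = 6.65e-05, edgeR), and Stxbp5l, which encodes tomosyn-2, an inhibitor of SNARE assembly, fell by 2.14 ± 0.21 (adjusted p = 3.14e-06), as did Synpr, a vesicle membrane protein, by 1.95 ± 0.24. In alpha-like cells 1 of 37 (2.70%) was higher, again Rab37 (2.498 ± 0.35), and 4 (10.8%) were lower, beside 4.45% and 2.98% of all genes. The 4 were led by Synpr (-2.08 ± 0.27), the active-zone scaffold gene Pclo (-1.49 ± 0.21) and Stxbp5l (-1.28 ± 0.24). In the alpha-like fit Rab37 was at 2.35 to 53.2 CPM in Fev-like and at 63.2 to 132 in alpha-like cells. In both fits Rab37 passed the filter on low counts mainly through the hormone cells, so that its values are descriptions.

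Pclo was lower in alpha-like than in beta-like cells, at 13.6 to 41.1 against 72.4 to 132 CPM (-2.03 ± 0.15, adjusted p = 1.09e-07, edgeR), as were the exocyst gene Exoc7 (-1.57 ± 0.14) and the SNARE gene Vamp7 (-1.07 ± 0.19), the latter with no UMI in either class of the 3 v1 libraries and lower in the other 3, on which its value rests. Stxbp5l (1.15 ± 0.16) and Sytl5 (1.14 ± 0.28), a relative of Sytl4, were higher in alpha-like cells, so that of 40 tested 2 (5.00%) were higher and 3 (7.50%) lower, beside 3.28% and 3.83% of all genes. In delta-like against beta-like cells 2 of 44 (4.55%) were higher and 3 (6.82%) lower, near the 4.47% and 4.70% of all genes. They were Stxbp5l at 2.48 ± 0.19, Exoc6 at 1.69 ± 0.35 though higher in only 2 of 4 libraries, and Cadps, a granule priming factor (-1.87 ± 0.32), Exoc7 (-1.72 ± 0.18) and Pclo (-1.59 ± 0.26) lower.

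Against acinar-like cells the wider list was counted in the same way. In beta-like cells 21 of 48 tested (43.8%) were higher, led by Cadps (6.10 ± 0.49), Rab37 (6.04 ± 0.48) and Rims3 (5.98 ± 0.46), and 2 were lower, beside 17.4% of all genes in each direction. Cadps, Rab37 and Rims3 were at 1.88 CPM or less in acinar-like cells, so that they passed the filter through beta-like cells and had to differ, and the shares of the list are descriptions. The 2 were Rab27b, the close paralog of Rab27a, at 0 to 2.64 CPM in beta-like and 7.50 to 26.5 in acinar-like cells (-4.94 ± 0.46, edgeR), and Sypl (-1.74 ± 0.22). Rab27b passed the filter through acinar-like cells and had to differ, so that its value is a description. Rab27a lay the other way, at 57.0 to 113 against 0 to 9.49 CPM. In Neurog3-like cells 11 of 37 (29.7%) were higher than in acinar-like cells, among them Synpr (6.09 ± 0.40) and Stxbp5l (4.62 ± 0.50), and 2 (5.41%) were lower, beside 13.3% and 14.49% of all genes. Synpr and Stxbp5l were at 3.81 CPM or less in acinar-like cells. They passed the filter through Neurog3-like cells and had to differ, so that these shares are descriptions as well. Rest, the repressor of neuronal genes, was lower (-2.46 ± 0.31, adjusted p = 1.07e-04), at 0 to 24.5 CPM in Neurog3-like cells, and so was Sypl (-1.06 ± 0.25). Of 52 list genes tested in alpha-like cells at E14.5 against E12.5, 1 (1.92%) was called higher, Vamp8 (1.14 ± 0.27, adjusted p = 0.0337), near the 1.11% of all genes.

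**Figure D5:**
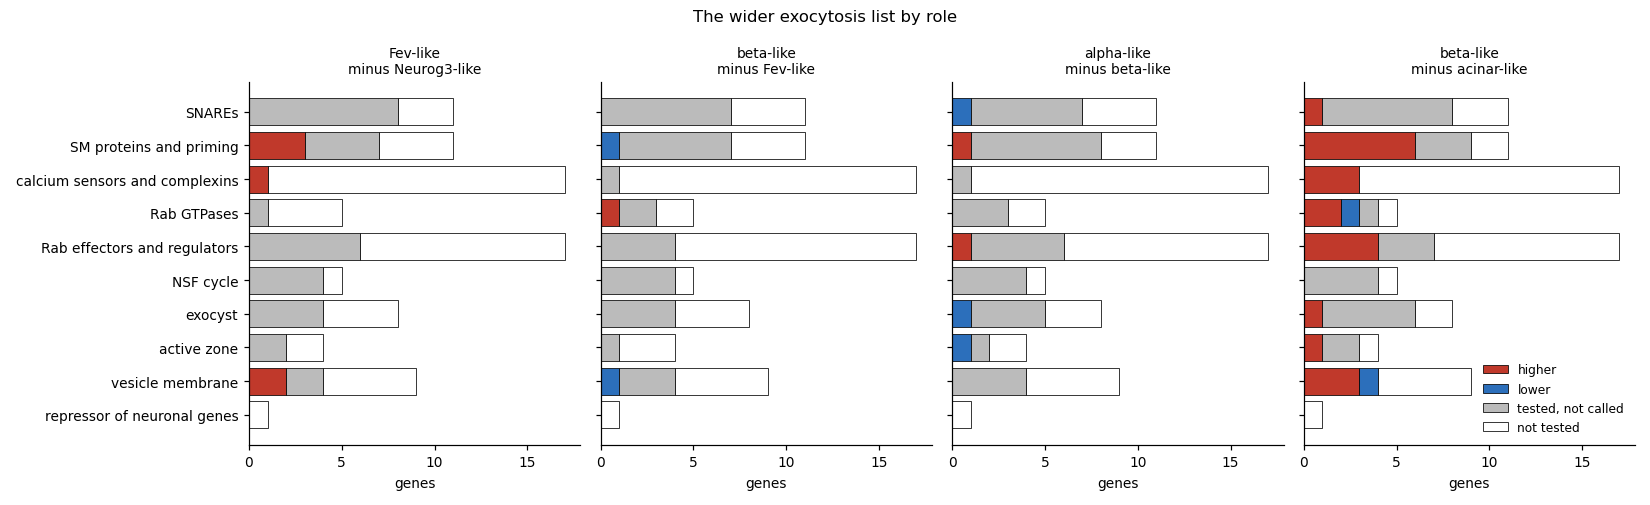
Genes of the wider exocytosis list (88 genes without the 10 members) by role, with bar length the number of genes, divided into called higher, called lower, tested without a call, and not tested, in 4 comparisons. At the Fev-like step 6 are called higher, and in beta-like against acinar-like cells 21 are called higher and 2 lower.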

How the data were processed

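Libraries of the 3′ droplet kit, versions 1 and 2, were aligned and counted by the authors with Cell Ranger 1.1 (v1) and 2.1 (v2) on the mm10 reference, and the deposited values are raw UMI counts per gene and cell. The members and gene lists were chosen with earlier results of these data known. Of 10 matrices, the Fev-Cre matrix with reporter sequences was used (the one without them is an alternative), and cells with at least 200 genes were kept. Totals of single matrices, with the 2 wells of E17.5 v2 taken apart, were 15671934 to 127151679 UMIs. In processing for this report, cells were clustered with the Leiden algorithm (leidenalg 0.10.2) on 2000 variable genes without the members and list genes. Clusters were named from at least 3 markers, and the naming thresholds were set after clusters were seen. Of 82 endocrine sub-clusters 33 (2529 cells) stayed unnamed, and 122 epsilon-like cells were not used. Cells with markers of 2 compartments that exclude each other (1008 endocrine, 98 acinar) were removed as doublets. The study used a size gate against doublets at sorting and also removed cells that expressed genes excluding each other. Counts were summed per class and library (39 sums with at least 20 cells) and fitted in edgeR 4.0.16 (R 4.3.3; TMM, filterByExpr, quasi-likelihood, Benjamini-Hochberg over all genes tested), with the library as a block between classes and the kit, but not the batch, as a term between stages. The block follows from the origin of the classes of a library in 1 suspension. Same-library correlations of the deviations were 0.416 to 0.903. Called means an adjusted p below 0.05 and at least a 2-fold difference. Intervals and floors (3 counts) cover counting error only. The named genes were the 10 members, up to 3 called genes of the wider list in each direction of a comparison, and the 2 genes most like each member. Values of some genes that this rule or the marker lists name are not reported here. Alternatives were DESeq2 1.42.0, other filters, normalization, class definitions, thinning and left-out libraries. The scripts were tested on simulated data. Strand use in counting was not stated in the sources read here.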

Additional observations from a re-analysis of the deposited data

Results flagged for a closer look

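Each member was examined for a library far from the rest in groups of 4 E14.5 libraries, and 6 of 50 groups held one by Dixon's test. Chance flags about 1 in 20 where groups are independent and values normal. These groups share libraries and some hold counts near 0, so that no excess over chance is read. Of the 6, 5 were the Fev-Cre library. It held 51.3 CPM of Ptprn in Fev-like cells against 5.70 to 9.31 in the other 3 libraries, 16.01 CPM of Snap25 in Neurog3-like cells against 5.49 to 6.11, and in acinar-like cells 9.72 CPM of Syt13 against 0 to 1.13, 4.77 CPM of Ptprn against 0 to 0.529 and 1.71 CPM of Snap25 against 0 to 0.188. Their cause was not tested. The sixth was Ptprn in alpha-like cells of E14.5 v2, at 78.1 CPM against 106 to 111 in the others.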

How the results depend on the processing

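Of 182 alternative counts of members called, 171 lay within 1.5 times of the reported count, and 25 of 27 calls, all but Rab27a (alpha-like minus beta-like) and Rab3a (delta-like minus beta-like), were made under every alternative in which the gene was tested. Many of the 27 passed the filter through the higher class and had to differ, as said above, so that nothing is read from their stability. The 2 lost calls were among the rest. Fev-like minus Neurog3-like called 3 members where classes were clustered on a random part of the UMIs of each cell and tested on the rest, and 2 with cells thinned to 2000 UMIs, both of which test fewer genes. Grouping cells by naming genes gave 5 for beta-like minus Fev-like, 2 for alpha-like minus Fev-like and 1 for alpha-like minus beta-like, and no low-count filter gave 2 for alpha-like minus Fev-like. Alpha-like minus beta-like also gave 1 with doublets kept, thinned and with the v2 kit only. The share of cells with a UMI of a member, 8.99% in the median, was 22.8% with all UMIs. Leaving out each library gave 5 to 5, 3 to 4, 1 to 1, 1 to 2, 2 to 4, 3 to 3 and 10 to 10 calls in the comparisons between classes, in the order plotted, and 0 to 0, 0 to 0, 0 to 1 and 0 to 0 in those between stages. Without the replicate block, which pairs classes of 1 library, the counts were 5, 3, 1, 2, 3, 3 and 10, and 0 for the stage change between classes. The causes were not tested.

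Over all genes, calls in the order of the background percentages were 884, 593, 416, 468, 642, 2287, 2924, 66, 35, 171 and 157. Without the low-count filter they were 1931, 1667, 1385, 1341, 1082, 3991, 5690, 343, 196, 403 and 250. Thinned they were 438, 269, 225, 221, 295, 1412, 1572, 28, 6, 66 and 61. With that division of the UMIs they were 493, 326, 222, 270, 391 and 1367 for the first 6, and 13, 72 and 76 for the last 3. The v2 kit only gave 1193, 702 and 989 for beta-like minus Fev-like and the next 2. Without E17.5 v2 the alpha-like and delta-like comparisons with beta-like cells gave 295 and 328, and the stage comparisons at E17.5 gave 2, 1 and 5. No kit term gave 8, 1 and 39 between stages, no replicate block 322 (delta-like minus beta-like) and 0 (stage change between classes), and DESeq2 104 (beta-like stages) and 34 (stage change between classes). For beta-like stages, leaving out Fev-Cre gave 28 and E14.5 v1 batch 2 gave 30. For alpha-like E17.5 minus E14.5, leaving out E12.5 v1, E14.5 v2 or E17.5 v1 gave 67, 65 and 68, and for E14.5 minus E12.5, leaving out E12.5 v1 or v2 gave 77 and 25. The stage change between classes gave 71 without Fev-Cre and 250 without E17.5 v1. Leaving hormone and haemoglobin UMIs out of the totals, chosen after seeing the data, moved the median level of the members from 50.6 to 55.5 CPM.

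A change of sign was seen in 70 of the 1631 member values, in 36 pairs of a gene and a comparison, none of them with an adjusted p below 0.05 in the reported fit or in the alternative. Leaving out each library gave log2 differences of -0.033 to 0.21 (Cplx2) in Fev-like minus Neurog3-like. For beta-like minus Fev-like the range was -0.087 to 0.088 (Stx1a). For alpha-like minus Fev-like the range was -0.031 to 0.16 (Vamp2). For alpha-like minus beta-like the ranges were -0.094 to 0.073 (Snap25), -0.19 to 0.016 (Stx1a), -0.26 to 0.027 (Vamp2) and -0.096 to 0.15 (Cplx2). For delta-like minus beta-like the ranges were -0.38 to 0.090 (Syt7), -0.32 to 0.38 (Stx1a), -0.17 to 0.28 (Cplx2) and -0.52 to 0.11 (Ptprn). For beta-like E17.5 minus E14.5 the ranges were -0.40 to 0.27 (Syt7), -0.14 to 0.58 (Stx1a), -0.12 to 0.25 (Vamp2), -0.14 to 0.43 (Rab27a), -0.41 to 0.069 (Cplx2) and -0.75 to 0.22 (Ptprn). For alpha-like E17.5 minus E14.5 the ranges were -0.061 to 0.72 (Syt13), -0.20 to 0.40 (Snap25), -0.53 to 0.31 (Stx1a), -0.73 to 0.63 (Vamp2), -0.18 to 0.24 (Rab3a), -0.034 to 0.90 (Rab27a) and -0.016 to 0.61 (Cplx2). For alpha-like E14.5 minus E12.5 the ranges were -0.61 to 0.15 (Stx1a), -0.32 to 0.11 (Rab3a) and -0.53 to 0.49 (Rab27a). For the stage change between classes the ranges were -0.36 to 0.43 (Syt13), -0.18 to 0.85 (Stx1a), -0.38 to 0.77 (Vamp2) and -0.66 to 0.56 (Rab27a). Thinning gave -0.047 (Cplx2, Fev-like minus Neurog3-like), 0.14 (Ptprn, alpha-like minus beta-like), -0.093 (Cplx2, delta-like minus beta-like), -0.19 (Vamp2, beta-like E17.5 minus E14.5), -0.054 (Rab3a, alpha-like E17.5 minus E14.5) and -0.0037 (Snap25, the stage change between classes). No low-count filter gave 0.0074 (Stx1a, beta-like minus Fev-like), -0.037 (Vamp2, delta-like minus beta-like) and -0.0064 (Rab3a, alpha-like E17.5 minus E14.5). Grouping cells by naming genes gave 0.041 (Stx1a, beta-like minus Fev-like), 0.25 (Rab27a, alpha-like minus Fev-like), 0.030 (Snap25, alpha-like minus beta-like) and 0.057 (Stx1a, alpha-like minus beta-like). The v2 kit only gave -0.062 (Vamp2, alpha-like minus Fev-like) and 0.034 (Rab27a, alpha-like minus Fev-like). Keeping doublets gave -0.0094 (Cplx2, alpha-like minus Fev-like), 0.070 (Snap25, alpha-like minus beta-like), -0.052 (Cplx2, alpha-like minus beta-like) and 0.047 (Stx1a, alpha-like E17.5 minus E14.5). Dividing the UMIs between clustering and test gave -0.30 (Stx1a, beta-like E17.5 minus E14.5), 0.18 (Cplx2, beta-like E17.5 minus E14.5) and -0.012 (Stx1a, the stage change between classes). No kit term gave 0.039 (Vamp2, alpha-like E17.5 minus E14.5). No replicate block gave -0.0034 (Vamp2, the stage change between classes).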

Other observations

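The 2 wells of the E17.5 v2 suspension, which share their cells' source, give the technical spread. Of 60 comparisons of a member in a class between them, 4 had a p under 0.05 by an exact binomial test of the counts, which compares these wells and not conditions, and the smallest adjusted p was 0.0353. That was reached by Sytl4 in beta-like cells, at 195 and 223 CPM, and by Syt13 in Neurog3-like cells, at 287 and 394 CPM.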
